A study of Mus musculus with 2 samples.

Results

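A class of endothelial nuclei marked by Ankrd33b and Fgfr3 was described from droplet single-nucleus RNA sequencing of ascending aorta and arch tissue of the mouse. It held 2534 of the 39531 deposited barcodes: 853 were Female and 1681 Male. Nuclei were chosen by unique molecular identifiers (UMIs, each standing for 1 captured RNA molecule) among barcodes with at least 300 detected genes. A barcode was endothelial when the sum of Ptprb, Pecam1, Cdh5 and Cyyr1, called E here, was at least 3 and above the sum of the smooth muscle genes Myh11, Acta2 and Lmod1, called S. It was a member when Prox1, the defining lymphatic factor, was at 0, and the sum of Ankrd33b, Chn2, Kirrel3, Fgfr3 and Syt7, called B, was at least 2 and above 2 rival sums. The first rival, A, added Nrg1, Emcn, Bmp6, Edn1 and Otogl, and the second, C, added Chrm3, Cyp4b1, Gkn3, Enpp6 and Selp. The A class and the C class were cut by rules of the same form and served for comparison.

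All mice were Wnt1-Cre/Rosa26-mTmG: Wnt1-Cre labels descendants of the neural crest, and Rosa26-mTmG gives tdTomato until Cre switches it to GFP in a cell and its descendants. The label names 6 mice, female or male and pooled by sex, without saying whether each pool held 6; ages are not given. Every value stands for 1 Female or 1 Male pool, and neither mice nor the technical replicates of a pool can be told apart. No control without Cre was analysed. With 1 library per sex, and with members chosen by expression, differences below are descriptions by size, with no test. Intervals are 95% intervals that cover counting error only. Depth was 79294181 UMIs over 18872 Female barcodes and 77989549 UMIs over 20659 Male barcodes.

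The endothelium lines the vessel lumen, where it senses the shear of flowing blood, sets vascular tone through nitric oxide and membrane hyperpolarisation, and forms the barrier to the arterial wall. In the aortic arch it meets both steady laminar flow and disturbed flow, and cultured endothelial cells are known to raise the transcription factors Klf2 and Klf4 under the first and to raise genes such as Edn1, Ctgf and Cyr61 under the second. Fgfr3 is a receptor tyrosine kinase for fibroblast growth factors, Chn2 encodes a GTPase-activating protein for Rac, Kirrel3 a cell adhesion molecule of the immunoglobulin superfamily, and Syt7 a calcium sensor of vesicle exocytosis.

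Members made up 16.0% of 5321 Female endothelial barcodes (95% exact binomial interval 15.1 to 17.0) and 23.8% of 7066 Male ones (22.8 to 24.8). The Female share was lower by 7.76 percentage points (Newcombe interval -9.15 to -6.35). The A class was the largest, with 66.8% of Female and 56.2% of Male endothelial barcodes, while the C class took 8.72% and 8.49%, and 8.42% and 11.5% fell in no class. Whether sex, the pool or library preparation gives the gap in shares cannot be told apart.

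Each of the 2 rival sums held a UMI in most members. At least 1 A UMI was found in 70.9% of Female and 60.0% of Male members, and at least 1 C UMI in 72.1% and 62.6%. Of the 5 B genes, 3 were detected in 33.1% of Female and 30.9% of Male members, all 5 in 9.14% and 9.22%, and a single one in 10.1% and 9.28%. Among endothelial barcodes with a B sum of at least 2, which were 52.7% of the Female and 56.7% of the Male ones, 64.0% and 52.7% had an A sum at or above B and so were not members. The rule thus cuts through overlapping expression of the 3 sums.

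Depth per nucleus was alike: Female members had a median of 3280 UMIs and Male members 3052, against 3207.5 and 3200 in the other endothelial barcodes. Levels below are CPM, the UMIs of a gene summed over the nuclei of a class and library and scaled to a fixed total. The label was checked against the 7 vascular endothelial markers that the rule did not use, Flt1, Tek, Tie1, Erg, Egfl7, Esam and Vwf. They summed to 3736 CPM in Female and 3586 CPM in Male members, against 3110 and 3002 CPM in other endothelial barcodes, 527 and 507 CPM in smooth muscle nuclei and 83.1 and 101 CPM in macrophage nuclei. The 8 lymphatic markers, of which the rule holds Prox1 at 0, summed to 41.9 and 60.7 CPM in members and 48.7 and 65.2 CPM in the A class.

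RNA of other cell types was present in some members. At least 3 smooth muscle UMIs were found in 12.0% of Female and 11.2% of Male members, 3 fibroblast UMIs in 5.39% and 5.83%, 3 macrophage UMIs in 1.99% and 1.07%, and 3 adipocyte UMIs in 0.938% and 1.07%. Over whole lists, the 10 smooth muscle markers summed to 738 and 712 CPM in members against 880 and 903 CPM in other endothelial barcodes, and the 10 fibroblast markers to 610 and 875 CPM against 811 and 1217 CPM. The 9 macrophage markers summed to 193 CPM in Female and 110.5 CPM in Male members, against 108 and 157 CPM. Of the 2 macrophage markers with enough UMIs to compare Female with Male members, Lyz2 alone was at least 2-fold higher in Female members. No marker of these 3 lists was at 0. The 8 adipocyte markers summed to 101 and 212 CPM against 160 and 244 CPM, and the 9 lymphocyte markers to 19.5 and 37.6 CPM against 119 and 124 CPM, with Cd3e and Il7r at 0 in Female members. The part of such RNA in the differences below was not tested gene by gene. Scrublet called 6.21% of Female and 8.39% of Male members doublets, close to the 5.98% and 8.99% of other endothelial barcodes. The libraries shared 4287 barcode sequences. Of the members, 198 Female and 332 Male nuclei carried one, and 18 sequences were members in both.

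The genes of the rule stood as the rule requires. Ankrd33b was at 449 CPM in Female and 443 CPM in Male members, against 97.3 and 103 CPM in other endothelial barcodes. Chn2 was at 937 and 898 CPM against 172 and 135 CPM, and Kirrel3 at 2104 and 1631 CPM against 381 and 412 CPM. Fgfr3 was at 173 and 228 CPM against 44.9 and 48.9 CPM. Syt7 was at 214 and 213 CPM against 56.4 and 56.5 CPM. These 5 values chose the members and carry no weight as a finding. Syt7 and Ankrd33b had nearly the same level in both libraries, while Kirrel3 was 1.29 times as high in Female as in Male members (1.25 to 1.33) and Fgfr3 0.760 times (0.686 to 0.840). These ratios too are of genes that chose the members, and the libraries differ in the mix of the subgroups described further on. In subgroup 3 Kirrel3 was at 2646 and 2569 CPM and Fgfr3 at 153 and 167 CPM. Kirrel3 was at 1944 and 1444 CPM in subgroup 0 and 2027 and 1610 CPM in subgroup 1. Fgfr3 was at 223 and 314 CPM and at 261 and 302 CPM there. The part of the mix in the ratios was not tested.

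Klk10 and Kcnn4 were given beforehand as markers of the class and were not used by the rule. Klk10, a secreted serine protease of the kallikrein family, was at 135 CPM in Female and 125 CPM in Male members. Other endothelial barcodes had 46.4 and 57.0 CPM, so the ratio was 2.92 (2.59 to 3.29) and 2.19 (1.99 to 2.40). Kcnn4, a calcium-activated potassium channel that carries endothelial hyperpolarisation, was at 192 and 201 CPM against 80.0 and 84.3 CPM, a ratio of 2.40 (2.18 to 2.65) and 2.38 (2.21 to 2.57). Both genes were higher in members in both libraries, but the C class came near: it had 109 and 117 CPM of Klk10 and 138 and 142 CPM of Kcnn4. With each nucleus thinned to 2000 UMIs, which left out 181 Female and 407 Male members as too shallow, Klk10 was found in 19.6% of Female and 17.6% of Male members, 6.32% and 7.58% of the A class and 12.9% and 16.7% of the C class. Unthinned shares in members were 27.0% and 24.6%. In smooth muscle nuclei, which should lack Klk10, 0.257% and 0.506% held a UMI after thinning, far under the members' share. For Kcnn4 the thinned shares were 29.0% and 29.6% in members, 12.0% and 12.5% in the A class and 19.7% and 20.1% in the C class, beside 38.8% and 40.0% of members unthinned.

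Promoter sequence is shown for Ankrd33b, the gene that names the class, and for Klk10 and Kcnn4, the markers outside the rule. Each stretch is the 250 bases before the RefSeq start on GRCm38.p6, printed 5′ to 3′ on the strand of the gene. Capitals mark every match to the letters GGGNGNGG or their reverse complement CCNCNCCC, a GC-rich pattern that takes in CACCC boxes of the kind bound by Krüppel-like factors and overlaps the GC box of Sp1.
Ankrd33b (chr15:31367760-31368009, minus strand): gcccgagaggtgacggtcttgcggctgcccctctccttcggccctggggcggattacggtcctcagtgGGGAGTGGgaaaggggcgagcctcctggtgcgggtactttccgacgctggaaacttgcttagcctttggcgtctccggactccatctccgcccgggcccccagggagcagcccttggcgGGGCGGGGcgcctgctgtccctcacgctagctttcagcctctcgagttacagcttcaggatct
Klk10 (chr7:43780804-43781053, plus strand): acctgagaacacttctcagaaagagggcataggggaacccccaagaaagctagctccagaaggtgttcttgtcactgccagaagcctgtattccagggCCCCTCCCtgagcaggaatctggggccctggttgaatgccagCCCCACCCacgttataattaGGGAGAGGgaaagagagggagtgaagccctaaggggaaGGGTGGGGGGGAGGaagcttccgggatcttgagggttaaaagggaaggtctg
Kcnn4 (chr7:24370013-24370262, plus strand): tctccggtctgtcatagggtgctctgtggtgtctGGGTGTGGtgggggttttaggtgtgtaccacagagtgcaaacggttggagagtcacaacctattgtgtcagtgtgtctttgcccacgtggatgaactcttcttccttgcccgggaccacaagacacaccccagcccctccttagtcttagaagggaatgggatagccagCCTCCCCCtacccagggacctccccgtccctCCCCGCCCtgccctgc
Matches numbered 2 in the Ankrd33b, 5 in the Klk10 and 3 in the Kcnn4 window, overlapping matches counted apart. The pattern was common. It lay in 45.9% of 32851 such windows, and among genes that passed the filter described next in 67.1% of 6191. Of genes higher in members, 45 of 64 with a window held it (70.3%), and of genes lower in members 42 of 68 (61.8%). The higher genes thus held it about as often as all genes that passed.

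**Figure D1:**
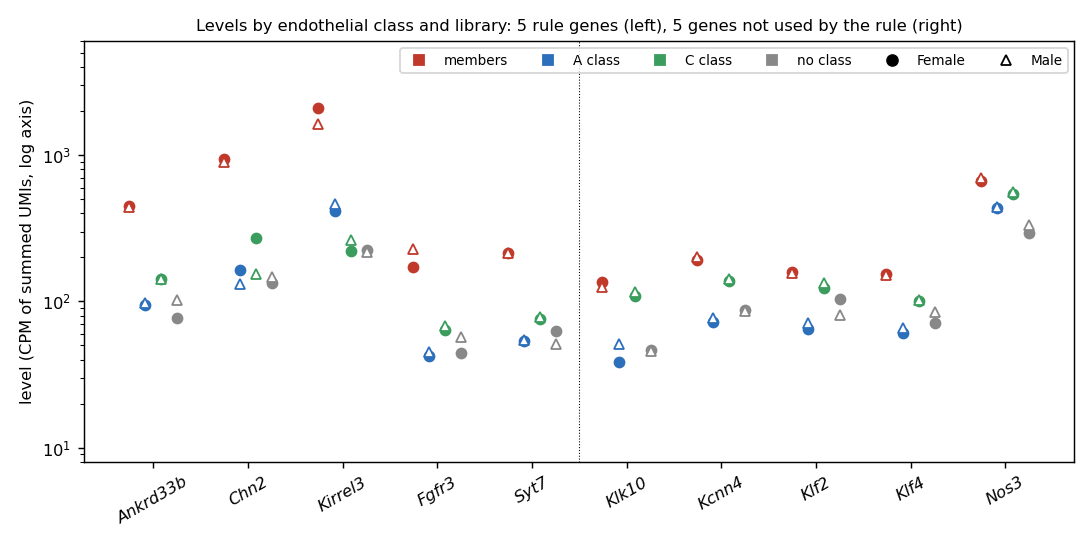
Level of 10 genes (CPM of summed UMIs, log axis) in 4 endothelial classes, with filled circles for the Female and open triangles for the Male library; no error bar is drawn, since each point is 1 sum. The 5 rule genes on the left are highest in members by choice; of the 5 genes on the right, members are highest for Klk10, Kcnn4, Klf2, Klf4 and Nos3 in both libraries, with the C class next.

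Across all genes, 7957 had at least 50 UMIs in all and 20 CPM in some class. A gene was called when log2 of members over other endothelial barcodes, with 5 CPM added to each, was past 2-fold the same way in both libraries. By this measure 90 genes were higher in members (1.13% of those tested) and 95 lower (1.19%), of which 5 and 7 were genes of the rule. The median over all genes tested was -0.01 (Female) and -0.04 (Male). Since the contrast is the one that chose the members, these are descriptions.

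Outside the rule, the genes with the highest ratios were of mixed function. Ccdc39, known for its part in assembling motile cilia, was at 110 CPM in Female and 78.4 CPM in Male members against 17.3 and 10.7 CPM, a log2 ratio of 2.36 and 2.41. Sdk2, an adhesion molecule of neurons, was at 74.7 and 83.5 CPM against 8.12 and 15.1 CPM. Cdh11, a cadherin best known from mesenchymal cells, was at 147 and 247 CPM against 31.6 and 44.9 CPM. Among the subgroups described further on, Cdh11 was at 304 and 463 CPM in subgroup 0, 232 and 329 CPM in subgroup 1 and 59.4 and 71.9 CPM in subgroup 3. Fibroblast nuclei, which carry Cdh11 too, had 183 and 180.5 CPM. The genes named here were ranked by these ratios, and the values are sums per library that do not part single nuclei. A Cdh11 UMI was found in 21.3% of Female and 30.2% of Male members.

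Secreted factors and receptors followed. Ptn, the heparin-binding growth factor pleiotrophin, was at 38.3 and 72.7 CPM in members against 5.63 and 8.06 CPM. Its level was uneven among the subgroups described further on: 169 and 167 CPM in subgroup 1, but 14.7 and 19.6 CPM in subgroup 0 and 5.53 and 21.6 CPM in subgroup 3. Ret, the receptor kinase of glial-derived neurotrophic factors, was at 23.7 and 38.7 CPM against 2.06 and 3.27 CPM. Rspo1, which strengthens Wnt signalling, had log2 ratios of 1.74 and 1.91. Dkk2, a modulator of Wnt receptors, had 1.98 and 1.63. Vwc2, a secreted BMP antagonist, was at 319 and 516 CPM against 102 and 137 CPM. Over both libraries Vwc2 was at 971 CPM in subgroup 1 and 240 CPM in the other members. Aldh1a3, which makes retinoic acid, had log2 ratios of 1.68 and 2.24, and Galnt18, a glycosyltransferase, 1.89 and 2.09. The levels of Ptn, Ret and Aldh1a3 were low, and each was higher in Male than in Female members.

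Of the remaining genes highest in members, Serpina1b, Serpina1d and Serpina1e belong to the alpha-1-antitrypsin family of protease inhibitors. Serpina1b had log2 ratios of 2.10 and 2.63 and Serpina1d of 1.85 and 2.20, and Serpina1e was at 17.2 and 24.4 CPM against 2.85 and 4.90 CPM. These are near-identical neighbours on chromosome 12, so the split of reads among them is uncertain. Abcb1a, the P-glycoprotein efflux pump of barrier endothelium, was at 53.9 and 119 CPM against 11.1 and 19.5 CPM. Stmn2, a microtubule regulator, was at 143 and 130 CPM against 37.4 and 30.7 CPM. Nostrin, which governs the trafficking of endothelial nitric oxide synthase, had log2 ratios of 1.52 and 2.11. Over both libraries Nostrin was at 66.1 CPM in subgroup 1 and 18.1 CPM in the other members, and Serpina1b at 90.2 and 23.9 CPM. Sez6l, Ifitm10, Ppp1r18os, Ccser1, Zbtb7c, Tspan11, Icosl and Mal ranged from 1.40 to 2.22 in Female and from 1.42 to 2.15 in Male nuclei.

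The genes lowest in members included receptors, secreted factors and enzymes. Unc5d, a netrin receptor, was at 1.62 CPM in Female and 2.44 CPM in Male members, 5 and 15 UMIs in all, against 61.4 and 70.1 CPM; the ratio was 0.0265 (0.00858 to 0.0620) and 0.0348 (0.0194 to 0.0576). Thbs1, the matricellular protein thrombospondin-1, was at 20.5 and 38.9 CPM against 187 and 277 CPM. Frzb, a secreted Wnt antagonist, was at 8.12 and 14.6 CPM against 55.4 and 78.1 CPM, and Gdf6, a BMP-family ligand, at 2.92 and 4.07 CPM against 28.1 and 37.4 CPM. Arhgap24, a GTPase-activating protein for Rac, was abundant elsewhere: 303 and 307 CPM in members against 1183.5 and 1184 CPM. Lpar1, a lysophosphatidic acid receptor, was at 21.1 and 31.4 CPM against 126 and 132 CPM. Fmo1 and Fmo2, flavin-containing monooxygenases, had log2 ratios of -1.90 and -1.95 in Female and -2.08 and -1.70 in Male nuclei. Gprin3, Coch, Ahsg, Galnt15, Arhgap28, Ugt8a and Krt18 lay between -2.52 and -1.69 in Female and between -2.35 and -1.69 in Male nuclei. Unc5d was near absent from members, whereas Arhgap24 and Fmo2 stayed well detected at a lower level.

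**Figure D2:**
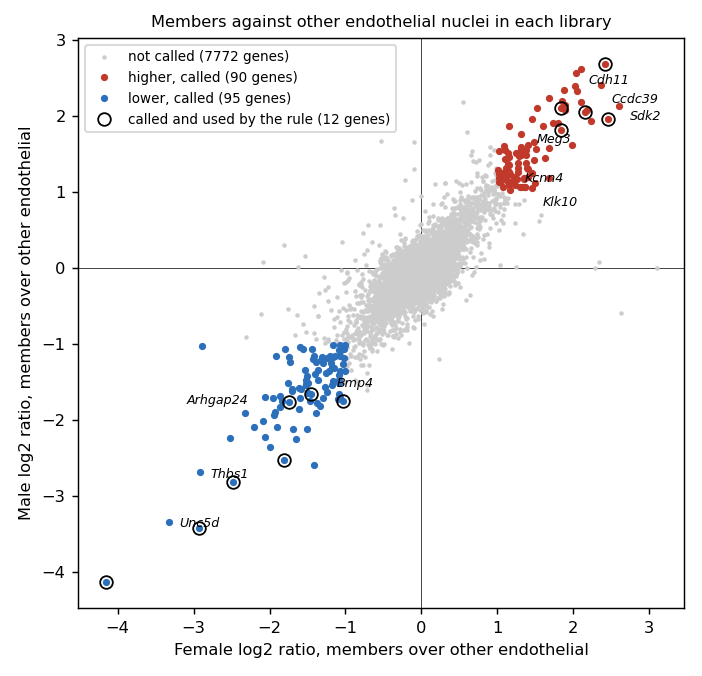
Log2 ratio of members over other endothelial nuclei for Female (x axis) and Male nuclei (y axis) for 7957 genes; coloured points are genes past 2-fold in both, and rings mark those used by the rule. The 90 higher and 95 lower genes lie near the diagonal, and Unc5d stands at -3.32 and -3.34.

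Genes known to be raised by steady laminar flow were read from a list of 20, of which 15 outside the rule passed the filter. Their median log2 ratio was 0.66 (Female) and 0.67 (Male), beside -0.01 and -0.04 over all genes. Against the C class alone it was 0.30 and 0.31, with 0 genes called, and against the A class 0.67 and 0.66. Against other endothelial barcodes Klk10 and Klf4 were called higher and none lower, beside 1.13% and 1.19% of all genes tested. Klk10 was given beforehand as a marker of the class, so its call carries no weight for the list. Klf4 was at 154 and 152 CPM in members against 65.9 and 71.9 CPM, and Klf2 at 158 and 157 CPM against 74.4 and 78.6 CPM, with log2 ratios for Klf2 of 1.04 and 0.96. Nos3, endothelial nitric oxide synthase, was at 668 and 702 CPM against 433 and 440 CPM, and Tek, the angiopoietin receptor, at 956 and 746 CPM against 594 and 472 CPM. Slc9a3r2, Palmd and Dhh lay between 0.87 and 1.10 in either library. Cyp1b1 went the other way, at 56.5 and 61.4 CPM against 106 and 111 CPM, as did the gap-junction gene Gja4, at 57.8 and 61.2 CPM against 95.3 and 97.2 CPM. In all, 13 of the 16 list genes tested, Pecam1 of the rule included, were above 0 in both libraries and 3 below.

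Genes known to be raised by low or disturbed flow had a median of -0.40 and -0.71 over the 18 tested that the rule did not use. Against the C class the median was -0.22 and -0.35, and 0 of 18 were called either way, so the calls that follow are against endothelial barcodes that are mostly of the A class. Bmp4, Ctgf, Cyr61, Thbs1 and Frzb were called lower, and Dkk2 higher, beside 1.19% and 1.13% of all genes tested. Bmp4, a BMP ligand, was at 521 and 448 CPM in members against 1254 and 1167 CPM. Ctgf and Cyr61, secreted matricellular proteins and known targets of the YAP coactivator, were at 29.2 and 51.9 CPM against 99.3 and 200.1 CPM and at 73.1 and 65.6 CPM against 229 and 208 CPM. Pdgfb had a log2 ratio of -0.97 in either library, and Icam1 -0.65 and -0.79. Nfkb1, Rela and Hif1a lay between -0.17 and 0.15. The list is not independent of the rule, because Edn1 belongs to the A sum and Selp to the C sum, and a nucleus rich in them was less likely to be a member.

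Among genes of nitric oxide and prostacyclin, 20 outside the rule were tested and 1, Nostrin, was called higher, where 1.13% of all genes tested were. Several enzymes had small ratios above 0: Gch1, which makes the cofactor of nitric oxide synthase, had log2 ratios of 0.68 and 0.71, Ptgs1 0.68 and 0.62 and Ptgis 0.41 and 0.50. The nucleotide receptor genes P2ry2 and P2ry1 were at 15.6 and 20.8 CPM against 6.18 and 7.92 CPM, and at 20.1 and 31.1 CPM against 11.7 and 11.7 CPM. Caveolin genes Cav1 and Cav2 were at -0.47 and -0.52, and -0.26 and -0.44, and Ddah1, which degrades an inhibitor of the synthase, at -0.73 and -0.56. The median was 0.02 and 0.00, with as many tested genes of the list above 0 in both libraries as below it (10 each).

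Of genes of membrane potential and calcium entry, 23 were tested. Those called included Kcnn4, higher, as given above, and Kcnt2, a sodium-activated potassium channel gene, lower, beside 1.13% and 1.19% of all genes tested. Kcnn4 was given beforehand as a marker of the class, so its call carries no weight for the list. Kcnt2 was at 738 and 536 CPM in members against 1557 and 1368 CPM. Of mechanosensitive channels, Piezo1 had log2 ratios of 0.06 and 0.10 and Trpv4 0.89 and 0.87. Kcnq1 had 0.85 and 1.04, and Kcnn3, the other calcium-activated channel of endothelium, 0.55 and 0.35.

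Of 21 arterial genes tested, Dll1, Jag2 and Stmn2 were called higher and Nrp1 lower, beside 1.13% and 1.19% of all genes tested, with a median of -0.01 and -0.06. Dll1 and Jag2 encode Notch ligands. Dll1 was at 45.5 and 39.4 CPM against 14.6 and 16.1 CPM, and Jag2 at 22.7 and 20.8 CPM against 5.57 and 5.29 CPM. Over both libraries Jag2 was at 288 CPM in the 59 nuclei of subgroup 2, described further on, and 14.15 CPM in the other members. Nrp1, a coreceptor of VEGF and semaphorins, was at 471 and 332.5 CPM against 964 and 756 CPM. The receptor Notch1 had 0.44 and 0.54, while the target Hey2 had -0.32 and -0.55 and Efnb2 -0.50 and -0.51. The arterial list as a whole lay near the median of all genes.

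Of 12 genes of FGF signalling outside the rule that passed, none was called, and the median was -0.04 and -0.03. Over all genes tested, 1.13% were called higher and 1.19% lower. Fgfr4 was closest at 0.90 and 1.49, and Fgfr1, the common endothelial receptor of the family, had -0.06 and -0.08. Spry2, a feedback inhibitor induced by the pathway, had 0.21 and 0.04. Of 16 further genes of vesicle release and synaptotagmins, 0 were called, beside Syt7 of the rule.

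Of 19 junction genes outside the rule that were tested, Cldn5 and Magi1 were called higher and the guidance receptor gene Robo1 lower. Over all genes tested, 1.13% were called higher and 1.19% lower. Cldn5, the tight-junction claudin of endothelium, was at 234 and 353 CPM against 106 and 138 CPM. Magi1, a junction scaffold, was at 891 and 1266 CPM against 411 and 461 CPM. The water channel gene Aqp1 was at 596 and 785 CPM against 234 and 370 CPM. In the TGF-beta and BMP list of 25 genes outside the rule, Bmp4 and Ltbp2 were called lower and none higher. The coreceptor Eng had log2 ratios of -0.91 and -0.89 and the inhibitory Smad6 -0.92 and -0.88, while the target Id1 had 0.63 and 0.83.

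In the lists of this paragraph at most 1 gene was called in either direction, where 1.13% of all genes tested were called higher and 1.19% lower. Nothing is read from these counts. Of 17 Wnt genes, Dkk2 was higher and Frzb lower, and of 42 transcription factors of endothelial identity and position, Klf4 alone was called. Thbs1 alone was called, lower, among 33 matrix and basement membrane genes. Of 17 genes of antigen presentation and interferon response, Cd74, the invariant chain, was called lower and 13 were below 0 in both libraries, with a median of -0.16 and -0.35. Apoe alone was called, lower, among 18 lipid genes, and none of 14 clock and 12 sex steroid genes.

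Mitochondrially encoded transcripts were higher in members together. All 9 that passed had a log2 ratio above 0 in both libraries, with a median of 0.62 and 0.67, and none was called. Mitochondrial UMIs were 0.514% of all UMIs in Female and 0.634% in Male members, against 0.417% and 0.442% in other endothelial barcodes. The C class had 0.569% and 0.572%. Ribosomal protein genes lay the other way, 72 of the 75 tested having a ratio below 0 in Female and Male nuclei alike, with a median of -0.24 and -0.31. The part of these RNA-quality measures in the gene differences was not tested.

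Against the A class alone, 123 of 7919 genes were higher in members (1.55%) and 106 lower (1.34%). Ptn had the widest gap, with log2 ratios of 2.84 and 3.40 that rest largely on subgroup 1, followed by Galnt18 at 2.60 and 2.70. Serpina1b, Sdk2, Sez6l, Ifitm10, Ccdc39 and Cdh11 lay between 2.16 and 2.81. Of these, Sez6l and Cdh11 were among the leading genes of subgroup 0 and Serpina1b of subgroup 1. Unc5d was lowest at -3.49 and -3.57, and Thbs1 was at 227 and 346 CPM in the A class. Gprin3, Frzb, Gdf6, Coch, Ahsg and Lpar1 lay between -2.64 and -2.05.

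The C class stood nearer. Against it 52 of 8140 genes were higher in members (0.639%) and 44 lower (0.541%). Genes higher than both classes numbered 44, of which 39 were outside the rule; they were 35.8% of the genes higher than the A class and 84.6% of those higher than the C class. Both comparisons share the members. Aldh1a3 had log2 ratios of 1.97 and 2.34 against the C class, Rspo1 1.75 and 1.83, Nostrin 1.75 and 1.96, and Ccdc39 1.74 and 2.77. Serpina1b, Sdk2 and Sez6l lay between 1.91 and 2.34, and Ptn had 1.98 and 3.39. Ptn, Nostrin and Serpina1b were among the leading genes of subgroup 1, and Sez6l of subgroup 0.

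Genes lower in members than in the C class were partly others than against the A class. Mannr, a long noncoding RNA, had -2.61 and -2.25, Hoxb6, a positional homeobox gene, -2.17 and -2.21, Adra2a, an adrenergic receptor gene, -1.82 and -1.90, and Nt5e, which makes adenosine, -1.74 and -2.14. Krt18, Dach1 and Gprin3 lay between -1.99 and -1.61, and Unc5d had -2.97 and -2.55. Thbs1, by contrast, was at 20.5 and 38.9 CPM in members and 18.0 and 61.2 CPM in the C class, and Klf2 at 158 and 157 CPM against 124 and 133 CPM. Thbs1 was thus past 2-fold lower than in the A class and under 2-fold apart from the C class, though a Thbs1 UMI was found in 8.45% of Male members (7.16 to 9.88) and 12.5% of the Male C class (9.96 to 15.4). Unc5d was past 2-fold lower than in both.

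The threshold of the rule was a B sum of 2. Just outside it stood 25 Female and 67 Male nuclei with a B sum of 1 and no A or C UMI, and just inside 33 Female and 104 Male members with a B sum of 2. Klk10 was at 26.7 CPM in Female and 27.4 CPM in Male nuclei just outside and at 60.1 and 112 CPM just inside. Kcnn4 was at 53.4 and 76.7 CPM outside and 195 and 170 CPM inside. Among members Kcnn4 had no steady trend with the B sum: it was at 176 and 206 CPM with 3 to 5 B UMIs and at 177 and 204 CPM with 10 or more. General endothelial genes had a like step: Pecam1 was at 1962.5 and 2223 CPM outside and 3936 and 5342 CPM inside, and Nos3 at 147 and 203 CPM outside and 571 and 654 CPM inside, so the step of Klk10 and Kcnn4 is not particular to them. The nuclei at the threshold were shallow, with median UMIs of 1874 and 1633 outside and 1424 and 1469 inside, and the 95% Poisson intervals of Klk10 on either side overlapped for Female nuclei (3.23 to 96.5 and 16.4 to 154 CPM) and not for Male ones (8.89 to 63.9 and 69.1 to 171 CPM). Meg3 went different ways, at 1228 CPM outside and 676 CPM inside in Female nuclei and at 810.3 and 1706 CPM in Male nuclei.

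**Figure D3:**
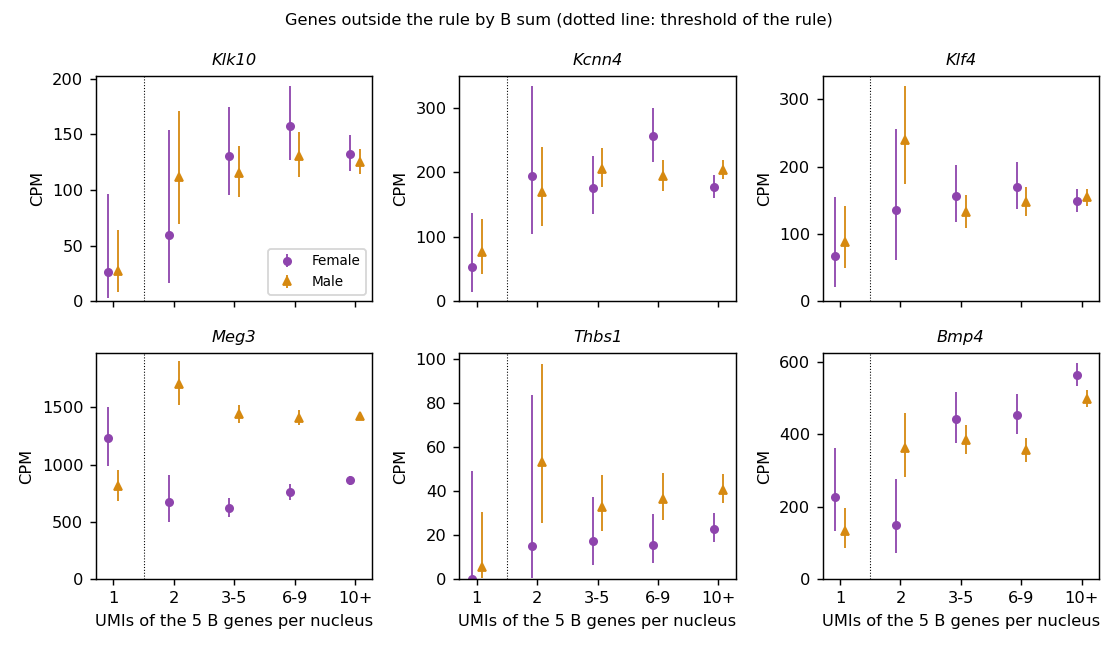
Level (CPM, with 95% exact Poisson intervals) of 6 genes outside the rule in nuclei grouped by their B sum, Female as circles and Male as triangles; the dotted line is the threshold of the rule. Kcnn4 is at 53.4 and 76.7 CPM below the line and between 170 and 256 CPM above it, and Meg3 is higher in Male than in Female members in every group above the line.

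Members fell into 8 subgroups when they were clustered without the rule genes and without genes at least 2-fold apart between the libraries. Subgroup 3 was the largest, with 46.4% of Female and 28.0% of Male members (intervals 43.0 to 49.8 and 25.9 to 30.2), led by Tox, Rasgef1b, Smoc1 and Pde3a. Subgroup 0, led by Fgf14, Gata4, Mgp and Cdh11, held 26.1% and 23.1%. Gata4, a transcription factor of heart and endocardium, was at 144 and 114 CPM there against 52.5 and 21.0 CPM in subgroup 3. Mgp, a matrix inhibitor of calcification, was at 2826 and 2765 CPM against 1376 and 1214.5 CPM. Leading genes define the clusters and are given as a description.

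Subgroup 1 held 16.5% of Female (14.1 to 19.2) and 36.3% of Male members (34.0 to 38.6), led by Ptn, Meg3, Vwc2, Rian and Mirg. Meg3 (chr12:109541001-109571726), Rian (chr12:109603940-109661716) and Mirg (chr12:109729764-109749460) are noncoding RNAs of 1 imprinted locus on the plus strand of GRCm38, expressed from the maternal chromosome. Meg3 was at 2218.5 CPM in Female and 2806 CPM in Male nuclei of subgroup 1, against 376 and 513 CPM in subgroup 0 and 536 and 545 CPM in subgroup 3. Meg3 and Ptn stayed in the clustering because they were under 2-fold apart, yet both were lower in Female members (Female to Male ratios 0.565, 0.541 to 0.591, and 0.527, 0.427 to 0.647), so the size of subgroup 1 is not independent of them. Across all members Meg3 was at 809.7 and 1432 CPM against 310.1 and 484 CPM in other endothelial barcodes, Rian at 130.3 and 237 CPM against 50.5 and 81.7 CPM, and Mirg at 33.8 and 65.1 CPM against 10.7 and 18.1 CPM. Fibroblast nuclei had 1678 and 1720 CPM of Meg3. Summed over all members, the 3 transcripts were each past 2-fold higher in both libraries. Outside subgroup 1 the excess was smaller or absent. Rian was at 80.2 and 63.0 CPM in subgroup 0 and 81.5 and 75.5 CPM in subgroup 3. These values were above other endothelial barcodes in Female and below them in Male nuclei.

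The edges between subgroups 0, 1 and 3 depended on the clustering. With resolution 0.3 in place of 0.5, 65.4% of subgroup 1 joined a cluster with all of subgroup 3, which held 73.5% of Female and 57.8% of Male members. With resolution 0.8 the cluster closest to subgroup 1 held 10.6% and 24.6%, and with 30 principal components in place of 20 it held 19.7% and 39.8%, and took in much of subgroup 0. The closest match had the higher share in the Male library at these 2 settings, and not at the lower resolution.

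Subgroup 2 was small, with 22 Female and 37 Male nuclei led by Nebl, Sema3g, Jag2, Vegfc and Pdgfb. Sema3g, an arterial semaphorin, was at 337 and 524 CPM there and between 5.39 and 42.5 CPM in subgroups 0, 1 and 3. Kirrel3, a gene of the rule, was at 10.9 and 110 CPM, 1 and 17 UMIs, against 1444 to 2646 CPM in those 3 subgroups. Klf2 was at 380.2 and 310.3 CPM and Klf4 at 348 and 304 CPM, above their values in subgroups 0, 1 and 3. At resolution 0.8 the group kept 98.3% of its nuclei in 1 cluster, and with 30 components 76.3%, while at resolution 0.3 it joined most of subgroup 0.

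Subgroups 4 to 7 were led by genes of smooth muscle, adipocytes, macrophages and fibroblasts. Together they held 246 members, 71 Female (8.32%) and 175 Male (10.4%). Of subgroup 4, 92.0% of nuclei had at least 3 smooth muscle UMIs, of subgroup 5, 86.2% had 3 adipocyte UMIs, of subgroup 6, 95.5% had 3 macrophage UMIs, and of subgroup 7, 81.7% had 3 fibroblast UMIs. Median UMIs were 4608, 11310, 5578 and 6116, against 2232 to 3467 in subgroups 0 to 3. They are given by number. Counts of members over other endothelial barcodes with few UMIs of other classes, a restriction described next, were 96 higher and 116 lower, of which 72 and 86 were among the 90 and 95.

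**Figure D4:**
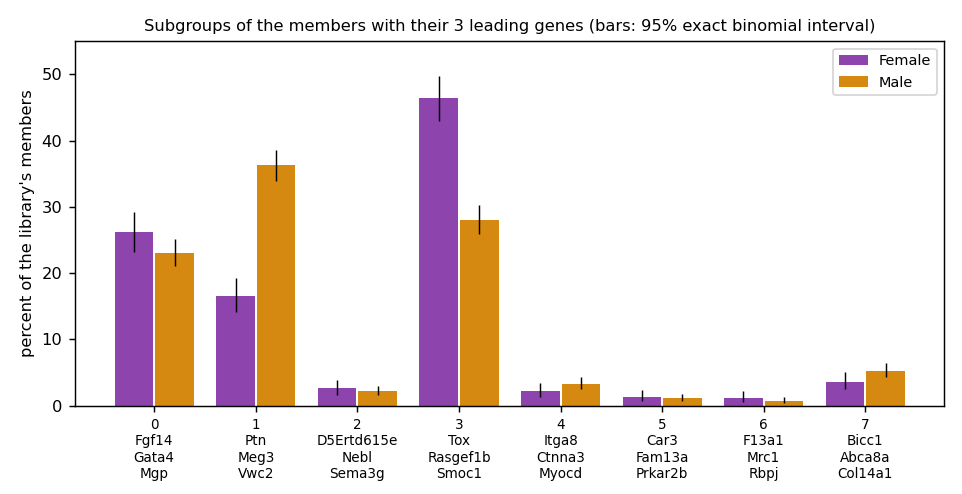
Percent of each library's members in 8 subgroups (bars from 0, with 95% exact binomial intervals), named by number and 3 leading genes. Subgroup 1 holds 16.5% of Female and 36.3% of Male members, subgroup 3 46.4% and 28.0%, and subgroups 4 to 7 each 5.29% or less.

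Between the sexes, 17 of 7615 genes were at least 2-fold higher in Female members (0.223%) and 70 higher in Male members (0.919%), by size alone. Of these, 3 and 20 had a level under 0.1 of that in another cell class and could come from free RNA. The median over all genes was 0.01. Nuclei of subgroups 4 to 7 held 91.15% of the Male UMIs of Rbfox1. For Nckap5, Lrg1, Cmah and Fkbp5 they held between 11.85% and 30.03%, and further ranked genes were not split this way. The ranked genes were also recomputed in members with at most 1 UMI in each of the smooth muscle, fibroblast, macrophage and adipocyte sums. These were 580 Female and 1171 Male nuclei. The restriction was chosen after the data were seen and leaves out more members than subgroups 4 to 7 hold. In the members kept, the counts were 19 and 42.

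Cmah, Nckap5 and Lrg1 were among the genes with the largest Male-higher differences. Cmah, which makes a hydroxylated sialic acid, was at 44.5 CPM in Female and 363 CPM in Male members, a Female to Male ratio of 0.123 (0.102 to 0.146). In the A class it was at 20.9 and 50.7 CPM, and in the C class at 16.2 and 46.7 CPM, with ratios of 0.413 (0.359 to 0.474) and 0.347 (0.218 to 0.536). It was found in 53 Female and 418 Male members. Among members with few UMIs of other classes the log2 difference was -3.44. Nckap5 was at 21.8 and 187 CPM in members, at 29.7 and 54.6 CPM in the A class and at 29.4 and 21.2 CPM in the C class. Its log2 difference was -2.84, and -3.10 with few UMIs of other classes. In Male nuclei Nckap5 was at 603 CPM in subgroup 0, 168 CPM in subgroup 1 and 50.9 CPM in subgroup 3. In Female nuclei it was at 18.0, 50.9 and 11.7 CPM. Lrg1, a secreted glycoprotein of endothelium, was at 1.62 and 42.2 CPM in members and 2.24 and 20.2 CPM in the A class. The log2 difference of Lrg1 was -2.83, and -3.27 with few UMIs of other classes. The gap for Cmah and Nckap5 was wider in members than in both other classes by these values; the difference between classes was not tested.

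Some further genes were Male-higher in the A and C classes too. Fkbp5, a glucocorticoid-induced cochaperone, was at 59.1 and 255 CPM in members, 44.0 and 162 CPM in the A class and 55.8 and 179 CPM in the C class. Its log2 difference was -2.02, and -2.00 with few UMIs of other classes. Zbtb16, another glucocorticoid-responsive gene, was at 307 and 698 CPM in members and 276 and 743 CPM in the A class. Fkbp5 and Zbtb16 are also in the sex steroid list. They were the 2 of its 12 tested genes called lower in Female members, beside 0.919% of all genes tested. Rbfox1, a splicing regulator, was at 16.2 and 175 CPM, but 978 of its 1073 Male UMIs came from subgroups 4 to 7, 167 of them from 1 nucleus, and its log2 difference went from -3.08 to -0.77 among members with few UMIs of other classes. Grip1 went from -2.63 to -1.04, Kcnd2 from -2.01 to -0.50 and Col25a1 from -1.80 to 0.00097, the last with 109 of 153 Male UMIs in 1 nucleus. Mpp6 had -2.28, and -1.38 after the restriction, with 14.9 and 91.8 CPM in members and 29.6 and 68.1 CPM in the A class. Npas3 had -2.02 and -1.56, with 2.60 and 25.9 CPM in members, from 6 Female and 36 Male nuclei, and 16.2 and 21.0 CPM in the A class.

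Female members were higher in Rps6ka2, a ribosomal S6 kinase, at 76.7 CPM against 25.7 CPM in Male members, where the A class had 247 and 217 CPM. Frmd3 was at 34.4 and 10.4 CPM, Csgalnact1, which starts chondroitin sulphate chains, at 277 and 114 CPM, Lrrc3b at 322 and 141 CPM and Ppp2r2b, a phosphatase subunit, at 113 and 50.1 CPM. Ctnnd2 and Degs2 had log2 differences of 1.20 and 1.13. All 7 stayed past 2-fold among members with few UMIs of other classes, from 1.06 to 2.31. The airway secretory genes Bpifa1, Cyp2f2 and Scgb1a1 also ranked as Female-higher, but 123 of 126, 55 of 65 and 73 of 74 Female UMIs came from single nuclei, and 0 Female UMIs were left under the restriction. Whether the other differences belong to sex, to the pools or to the libraries cannot be told apart. The 2 libraries also differed in subgroup mix. Subgroup 1 held 16.5% of Female and 36.3% of Male members, and subgroup 3 46.4% and 28.0%. The part of this mix in the differences was not tested, and the Female-higher genes were not split by subgroup.

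The reporter was read last, since neither of its genes entered the rule. GFP UMIs were 21.0% of reporter UMIs in Female members (219 GFP and 824 tdTomato UMIs; 18.6 to 23.6) and 18.9% in Male members (17.2 to 20.7). Other endothelial barcodes had 17.2% (16.2 to 18.3) and 18.5% (17.6 to 19.4), and smooth muscle nuclei 54.7% and 54.0%. As levels, GFP was at 71.2 and 59.9 CPM in members, 57.1 and 62.8 CPM in other endothelial barcodes, and 51.1 and 46.1 CPM in macrophage nuclei. tdTomato was at 268 and 257 CPM in members against 274 and 277 CPM. At least 1 GFP UMI was found in 18.9% of Female and 16.2% of Male members, and in 11.5% and 10.9% of macrophage nuclei, whose median UMIs were 2316 and 2553.5. Macrophages are not of neural crest origin, and their GFP share of reporter UMIs was 23.5% (19.2 to 28.3) and 23.1% (19.4 to 27.0). Their tdTomato was lower, at 166 and 154 CPM, so these shares rest on unlike denominators. Intervals of the GFP level were 62.0 to 81.2 CPM in Female members and 40.7 to 63.3 CPM in Female macrophages. In Male nuclei they were 53.9 to 66.3 and 38.0 to 55.3 CPM. After thinning to 2000 UMIs, GFP was found in 11.8% and 10.4% of members and 7.10% and 7.97% of macrophages. Whether members descend from the neural crest was not tested. The GFP share of Male members overlapped that of other endothelial barcodes. That of Female members lay above other endothelial barcodes beyond counting error and under the macrophage share, and was 18.2% with few UMIs of other classes (16.8% in Male members). In both libraries it was far under the share of smooth muscle.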

How the data were processed

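UMI counts per gene and barcode were used as the authors deposited them, with no normalization recorded. The matrices came from Cell Ranger 7.0.0 per the file headers. GRCm38, STAR, Cell Ranger and Seurat 4.4.0 are named in the submitters' processing notes. Not given in the sources used here are the annotation version, the strand setting and whether intronic reads counted. Each matrix held 54754 features, and every deposited barcode had at least 500 UMIs.

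Counts were summed per class and library and scaled to CPM. Log2 ratios were taken after adding 5 CPM, for genes with at least 50 UMIs and 20 CPM. Code was tested on simulated data. No doublet was removed in the main values. The genes named were up to 25 highest and 15 lowest against other endothelial barcodes, up to 8 each way against the A and C classes, up to 10 each way between the sexes and up to 6 per gene list, leaving out rule genes, gene models and genes under 0.1 of the CPM of another cell class in both libraries. Further genes of the lists, of the figures and of the subgroups, among them Rian, Mirg and Zbtb16, were chosen after their values were seen. The members and lists were chosen with earlier results of these data known. Clustering used scanpy 1.11.5, igraph 0.11.9, 20 principal components and resolution 0.5. Python 3.11.15, numpy 2.4.6, scipy 1.17.1 and pandas 2.3.3 were used.

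Positions came from GENCODE vM21 on GRCm38, which placed 54723 features by Ensembl identifier. Of 65 ranked genes, 9 overlap a protein-coding gene and are uncertain if strand was not used: Ccdc39 (Ttc14), Serpina1b and Serpina1d (each other), Sez6l (Gm6588), Ifitm10 (Gm49369), Ppp1r18os (Ppp1r18 and Nrm), Degs2 (Evl), Grip1 (Helb) and Mpp6 (Gsdme). A few genes and 1 gene group that passed the rules for naming are not reported here.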

Additional observations from a re-analysis of the deposited data

Results flagged for a closer look

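Nckap5, Grip1 and Kcnd2 moved in opposite directions in the 2 libraries when members were set against other endothelial barcodes. Nckap5 had a log2 ratio of -0.53 (Female) and 1.68 (Male). Grip1 had -1.81 and 0.31, and Kcnd2 -0.71 and 0.58. With 1 library per sex the difference was not tested. In members Nckap5 had 67 Female and 1148 Male UMIs, with 73 Male UMIs in its richest nucleus, Grip1 9 and 270 with 46, and Kcnd2 33 and 359 with 69. Of the Male Nckap5 UMIs, 11.85% came from subgroups 4 to 7, and 555 of the 1148 came from subgroup 0.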

How the results depend on the processing

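Values were recomputed under other settings, 1 of which was added after the data were seen. No paired analysis was possible because each sex has 1 library and the labels carry no replicate numbers; with 1 library per sex none was left out.

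With a pseudocount of 20 CPM the counts of genes higher and lower fell from 90 and 95 to 41 and 48 against other endothelial barcodes, from 123 and 106 to 58 and 64 against the A class, from 52 and 44 to 28 and 18 against the C class, and from 17 and 70 to 6 and 35 between the sexes; every gene in these counts was also called at 5 CPM. With at least 200 UMIs and 50 CPM, 26 genes were lower than in the C class, and 8 Female-higher and 38 Male-higher genes were left. With no CPM minimum there were 107 Male-higher genes. With S of 0, 36 genes were Female-higher, and the member share was 17.3% (Female) and 24.9% (Male). With a class threshold of 3 the Male share was 22.3%. With at most 1 UMI of each other class, the added alternative, the shares were 17.4% and 26.5%, the GFP share of reporter UMIs 18.2% and 16.8%, and 42 genes were Male-higher. The log2 difference turned sign for Col25a1 with S of 0 (0.12) and, under the added alternative, for Col25a1 (0.00097), Bpifa1 (-0.15), Cyp2f2 (-0.079) and Scgb1a1 (-0.88), the last 3 with 0 Female UMIs. The other 135 values of shares and counts stayed within 1.5 times or inside the counting interval. Of values for ranked genes in the class comparisons, 276 moved by more than the SD between the 2 libraries and 660 did not, and none changed sign; the cause was not tested.

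The mean of both libraries' medians lay between 0.52 and 0.68 for the laminar flow list and between -0.80 and -0.47 for the disturbed flow list. Depth limits the rarest genes: Unc5d rests on 5 Female and 15 Male UMIs in members, and in droplet data a count of 0 shows only that no UMI was captured.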
